A study of Mus musculus with 6 samples.

Results

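Mos, Map2k1, Map2k2, Mapk3, Rps6ka1, Rps6ka2 and Rps6ka3 form the cascade by which the oocyte kinase MOS activates MAP kinase. The 7 genes were taken by symbol from the 25239 genes of the count table, and all 7 had at least 1 count. Of the 7, 4 passed the filter on low counts (Mos, Map2k1, Map2k2 and Mapk3), as did 4644 genes of the whole table. The 3 RSK genes did not pass.

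The counts came from 3 Smart-seq3 libraries of water-injected and 3 of phthalate-injected mouse oocytes collected as germinal vesicle (GV) oocytes, before meiosis resumes. Both groups were cumulus-oocyte complexes (an oocyte within its follicle cells) from CD-1 females of 4 to 6 weeks, an outbred strain. They were injected and then cultured in the same medium, with 10% serum, 200 mIU/mL FSH and 50 µg/mL pyruvate, so the controls too had FSH and an injection. The labels do not state the dose or the members of the phthalate metabolite mixture. They name no animal or culture, and they do not say plainly that a group used more than 1 oocyte. Each group therefore counts as 1 sample. No difference between the groups was tested, and the spread between 3 libraries may be technical. Each library is called an oocyte here, after its title.

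MOS is a MAP kinase kinase kinase made almost only in germ cells. It activates MEK1 and MEK2 (Map2k1 and Map2k2), which activate the MAP kinase ERK1 (Mapk3), which in turn activates the RSK kinases (Rps6ka1, Rps6ka2 and Rps6ka3). In mouse oocytes Mos RNA is stored before it is translated. The protein accumulates as meiosis resumes, and the cascade then holds the egg at metaphase II until fertilization. RNA levels at the GV stage show the stored messages, not kinase activity.

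The libraries held from 252267 to 300917 gene counts. The 15 oocyte markers took between 3.32% and 3.78% of each library. Of 25 cumulus and granulosa markers, 16 were at 0 in all 6 libraries, among them Amh, Foxl2, Nr5a1 and Star. The 25 together had 7, 0 and 4 counts with water and 3, 11 and 2 with phthalate, here and below in the order of oocytes 1, 2 and 3. MEK, ERK and RSK genes are also active in follicle cells, and what those cells contributed to their counts was not tested.

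Mos is a gene of 1 exon on chromosome 4 (GRCm38 chr4:3870657-3872105, minus strand, 1449 bp). The other genes with usable counts are Map2k1 (chr9:64185770-64253631, minus strand), Map2k2 (chr10:81105915-81133975, plus strand) and Mapk3 (chr7:126759601-126765819, plus strand). Rps6ka1 lies at chr4:133847290-133887797, Rps6ka2 at chr17:7170115-7303315 and Rps6ka3 at chrX:159210307-159368244. In the RefSeq table Map2k1 overlaps Uchl4, which had 12 counts over the 6 libraries. Whether the counting used strand is not given in the sources used here, so reads of Map2k1 and Uchl4 may not be separable. Rps6ka1 overlaps the predicted genes Gm12977 and Gm22523, which were not analysed here.

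Reverse transcription started from an oligo(dT) primer, so a transcript enters these libraries by its poly(A) tail. The last 30 bases of the annotated Mos and Map2k1 transcripts are shown because they hold the signal that directs tail addition, the motif AATAAA, in capitals. The Mos bases lie at chr4:3870657-3870686, minus strand, in the 3′ untranslated region of its only exon.
Mos: ttttaggaAATAAAgttaccacgaacttca
Map2k1: tcaagttaaAATAAAagggacaagagattt

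The signal starts 22 bases before the end in Mos and 21 bases before it in Map2k1. Searched on the transcript's strand only, AATAAA was also in the last 30 bases of Rps6ka1, Rps6ka2 and Rps6ka3. It was not in that window in the longest coding transcripts of Map2k2 and Mapk3. Of 21871 protein-coding genes, 51.3% held it there, so its presence does not set the cascade apart.

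Mos was by far the most abundant message of the cascade, with 72.2% of the 2301 counts of the 7 genes, and its levels overlapped between the groups. It had 282, 300 and 244 counts with water and 283, 254 and 298 with phthalate. Scaled to a library total of 1000000 gene counts (CPM), these were 1046, 997 and 860 against 1122, 861 and 1084. The highest and the next highest were phthalate oocytes 1 and 3, the 2 lowest, water oocyte 3 and phthalate oocyte 2, were nearly equal, and the groups overlapped.

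The mean was 968 ± 96.7 CPM (SD, 3 libraries) for water and 1022 ± 141 for phthalate. The log2 ratio of the summed counts, phthalate over water, was 0.09 (95% interval -0.11 to 0.29), or 1.06-fold (0.925 to 1.22). Intervals here cover counting error only, and were computed on counts divided by 2, since 69.9% of all counts from 1 to 20 were even, as when both mates of a read pair are counted (of the 7 genes' own counts above 0, 20 of 37 were even). Counting error alone thus leaves Mos within 1.5-fold in either direction. Without phthalate oocyte 3 the log2 ratio was -0.01, and without phthalate oocyte 2 it was 0.23.

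The steadiness of Mos was partly that of any abundant gene. Among the 448 genes averaging 100 counts or more, 90% of the log2 ratios lay between -0.29 and 0.38. The SD of log2 CPM of Mos over the 6 libraries was 0.165, against a median of 0.225 over those 448 genes, 98 of which had a smaller one.

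**Figure D1:**
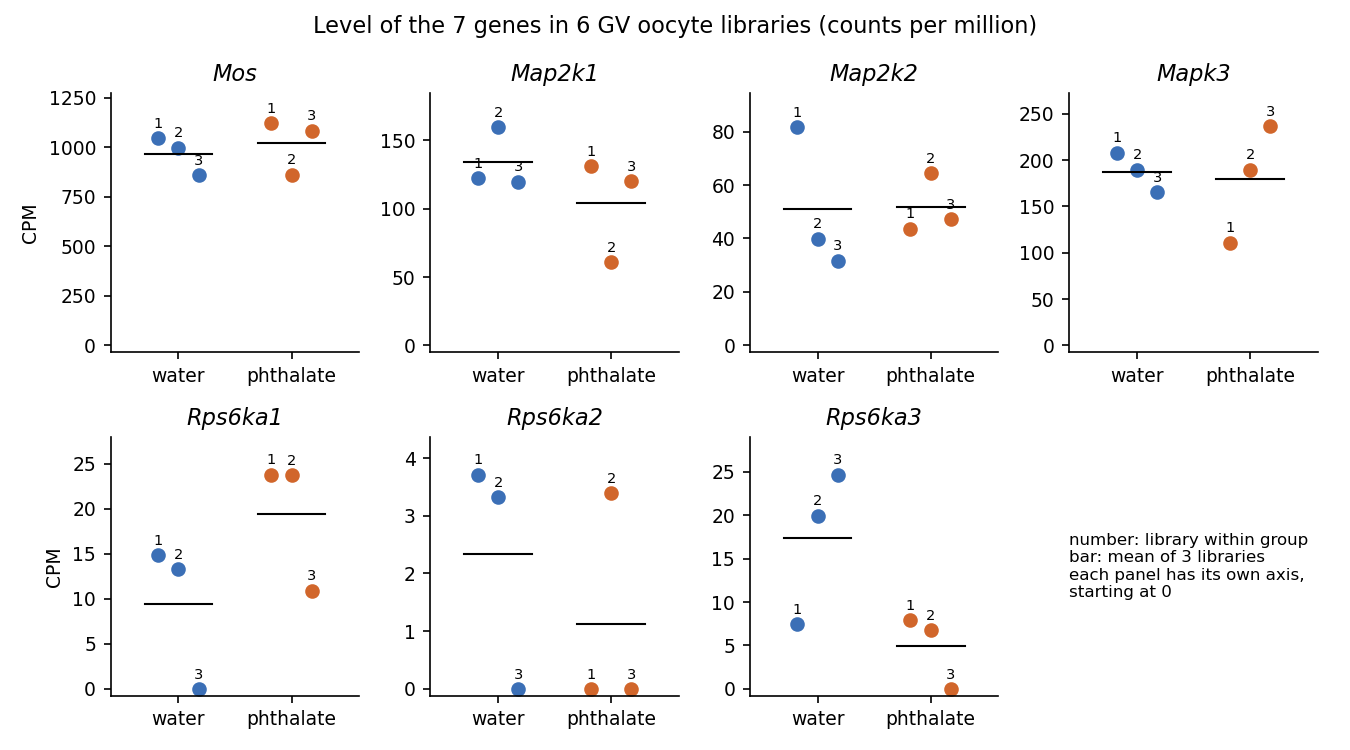
CPM (vertical axis, a separate scale from 0 in each panel) of the 7 genes in each water and phthalate library. Points are libraries with their number, and bars are means of 3. The groups overlap in every panel, and Mos, between 860 and 1122 CPM, lies far above the other 6 genes.

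Map2k1 encodes MEK1, the direct substrate of MOS. Its counts were 33, 48 and 34 with water and 33, 18 and 33 with phthalate, or 122, 160 and 120 CPM against 131, 61.0 and 120. Phthalate oocyte 2 was the lowest of all 6 and the other libraries of both groups lay close together, apart from the higher water oocyte 2. The log2 ratio was -0.38 (-0.99 to 0.22). It was the lowest of the 4 genes that passed the filter, and without phthalate oocyte 2 it was -0.06.

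Map2k2, which encodes MEK2, had 22, 12 and 9 counts with water and 11, 19 and 13 with phthalate. In CPM these were 81.6, 39.9 and 31.7 against 43.6, 64.4 and 47.3. Water oocyte 1 was the highest library and water oocyte 3 the lowest, so the phthalate values fell inside the water range. Both groups summed to 43 counts, for a log2 ratio of 0.07 (-0.86 to 1.00). At this depth a difference of 1.5-fold was not detectable for Map2k2. Leaving out water oocyte 1 gave 0.54 and leaving out water oocyte 3 gave -0.17.

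Mapk3, which encodes ERK1, had 56, 57 and 47 counts with water and 28, 56 and 65 with phthalate. In CPM these were 208, 189 and 166 against 111, 190 and 236. Phthalate oocyte 1 was the lowest and phthalate oocyte 3 the highest of the 6, and the water values lay between them. The log2 ratio was -0.03 (-0.51 to 0.44), or 0.979-fold (0.704 to 1.36). It was 0.21 without phthalate oocyte 1 and -0.32 without phthalate oocyte 3, and scaling to the ERCC spike-ins turned it to 0.08.

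The spread of Mapk3 was uneven. On counts divided by 2, the chi-square per degree of freedom among the 3 libraries, near 1 where counting error is the only source of spread, was 0.331 for water and 2.90 for phthalate. For Mos the values were 1.35 and 2.76, and for Map2k1 0.536 and 1.94, while Map2k2 went the other way with 1.96 and 0.331. With 3 libraries a group, the difference in spread between the groups was not tested.

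RSK messages were near the limit of detection. Rps6ka1, which encodes RSK1, had 4, 4 and 0 counts with water and 6, 7 and 3 with phthalate. Rps6ka3, which encodes RSK2, had 2, 6 and 7 counts against 2, 2 and 0. Rps6ka2, which encodes RSK3, had 1, 1 and 0 counts against 0, 1 and 0.

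If each count is a separate read, a count of 0 allows up to 3 counts, which is 9.97 to 11.9 CPM depending on the library. Where both mates of a read pair are counted, that limit is higher. From sums of 8 and 16 counts the log2 ratio of Rps6ka1 was 1.07 (-0.83 to 3.25), and from sums of 15 and 4 that of Rps6ka3 was -1.83 (-5.12 to 0.52). Both intervals span 0 and the groups overlapped. Without water oocyte 3 the ratio of Rps6ka1 was 0.49, under 1.5-fold. For Rps6ka3 leaving out 1 oocyte gave -2.29 to -1.30. No ratio is given for Rps6ka2, with 2 and 1 counts.

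None of the 4 genes that passed the filter reached a ratio of 1.5-fold. Of all 4644 genes that passed, 6.96% were at least 1.5-fold higher in the phthalate sums and 8.14% at least 1.5-fold lower. The CPM values of the groups overlapped for all 4 genes. Over the 4644 genes, 4.52% had every phthalate oocyte above every water oocyte and 5.49% had every one below. The median log2 ratio was 0.02 over the 4 genes, 2 above 0 and 2 below, and 0.01 over all 4644. With backgrounds this low, 0 of 4 does not set the cascade apart from other genes.

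The ratios scattered as counts of their size do. Among the 2336 genes with a mean count from 20 to below 100, the class of Map2k1 and Mapk3, 90% of the log2 ratios lay between -0.57 and 0.56. Among the 1860 genes below 20, the class of Map2k2, the limits were -0.87 and 0.82. All 4 genes lay inside the limits of their class.

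**Figure D2:**
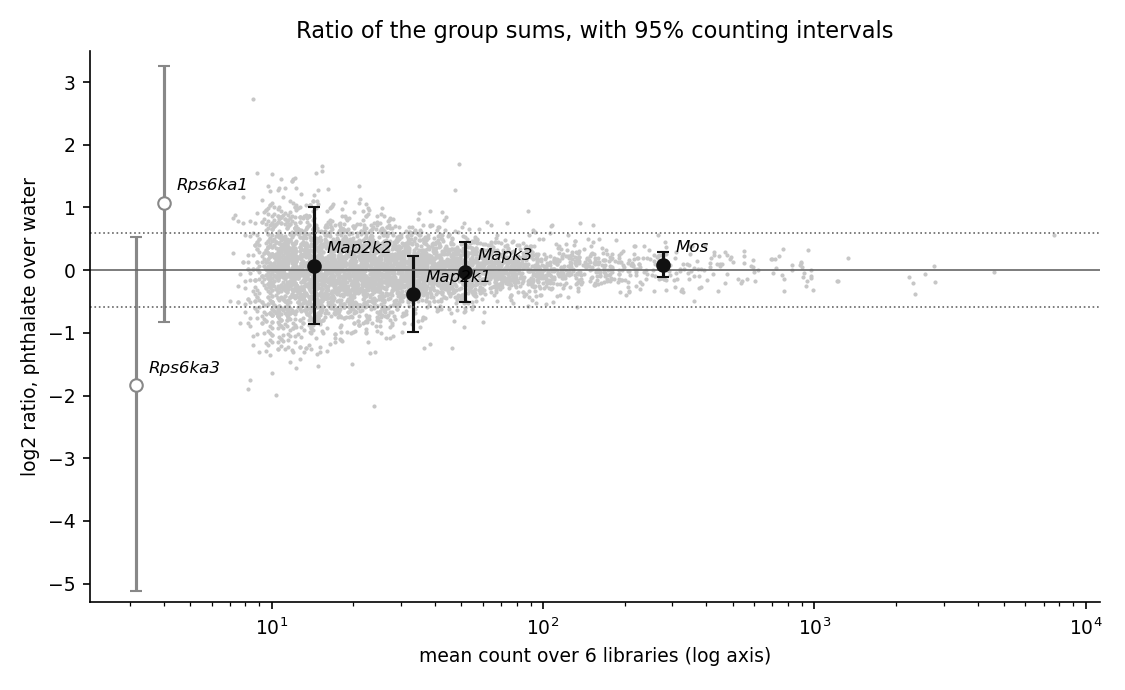
Log2 ratio of phthalate over water sums (vertical axis) against the mean count over 6 libraries (log axis). Filled circles are genes of the cascade that passed the low-count filter, open circles those that did not, bars are 95% counting intervals, grey dots are the 4644 genes that passed, and dotted lines mark 1.5-fold. Intervals narrow from Rps6ka3 to Mos, and each one drawn spans 0.

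To compare messages with each other, CPM was divided by exon length (the union of annotated exons, in kb). That division assumes reads spread along the whole transcript. Reads gathered at an end would make it favour short genes such as Mos, and where the reads lay was not tested. Per kb, Mos averaged 687 CPM (SD 77.4 over 6 libraries, range 593 to 774). Of 12543 genes with a count and a length, 88 were higher. The order below it was Mapk3 (91.1 CPM per kb, range 55.1 to 117), Map2k1 (48.8, range 25.0 to 65.5) and Map2k2 (21.4, range 13.2 to 33.9). Then came Rps6ka1 (3.92, range 0 to 6.46), Rps6ka3 (1.44, range 0 to 3.19) and Rps6ka2 (0.321, range 0 to 0.686).

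There were 2 gaps in that order. The lowest library of Mos lay above the highest of Mapk3, with means 7.54-fold apart, and the lowest of Map2k2 above the highest of Rps6ka1, with means 5.45-fold apart. The ranges of Mapk3 and Map2k1 overlapped, although Mapk3 was higher within each of the 6 libraries. Map2k1 was higher than Map2k2 in 5 of 6, the exception being phthalate oocyte 2. The RSK genes overlapped one another. The order did not change when the longest transcript was used in place of the union of exons.

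**Figure D3:**
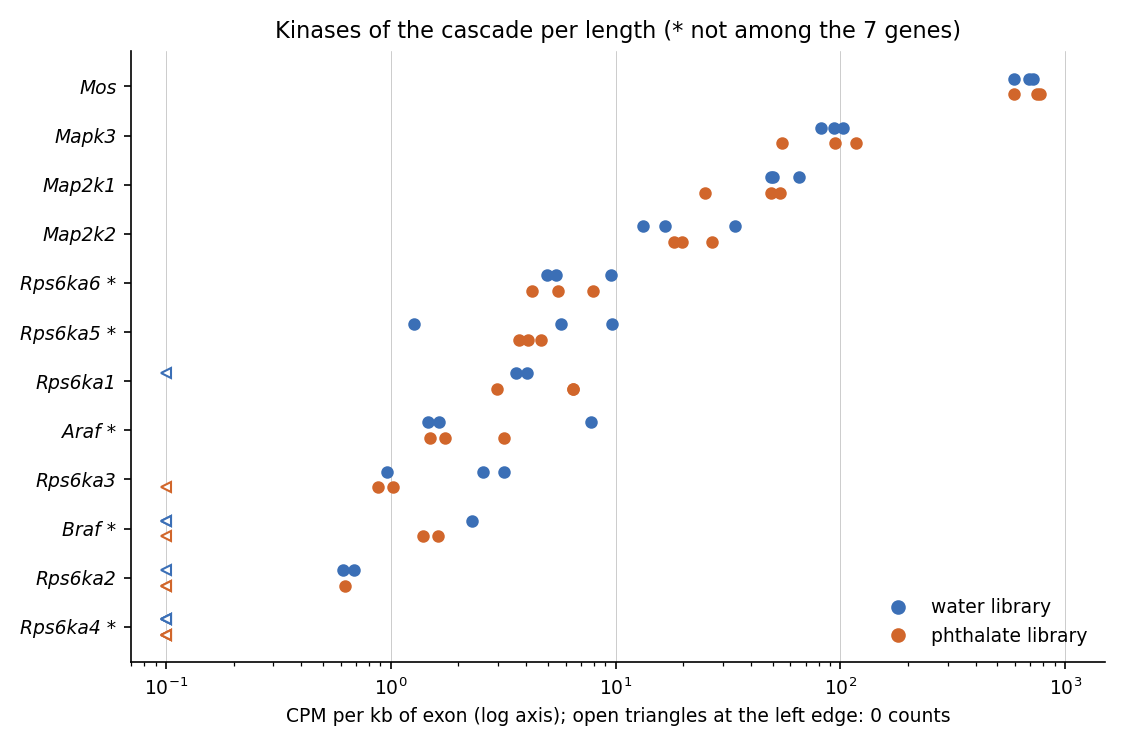
CPM per kb of exon (log axis) of the 7 genes and of other kinases of the cascade (starred), with blue points for water and orange for phthalate libraries. Open triangles at the left edge mark libraries with 0 counts and can lie on top of each other. Mos stands alone at the right, between 593 and 774, and the RSK genes lie below 10.

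Araf and Braf encode kinases that can also activate MEK, on input from growth factor receptors. Araf averaged 2.88 CPM per kb and Braf 0.885, both below the lowest value of Map2k2 and far below Mos.

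Among other RSK-type kinases, Rps6ka6 (RSK4) averaged 6.29 CPM per kb and Rps6ka5 (MSK1) 4.85. Rps6ka4 (MSK2) had 0 counts in all 6 libraries.

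The balance between Mos and its substrates did not overlap between the groups, although the level of each gene did. The ratio of Mos to Map2k1 and Map2k2 together, per kb, was 8.58, 8.38 and 9.51 with water and 10.8, 11.5 and 10.9 with phthalate. The groups did not overlap, with means of 8.82 ± 0.605 and 11.0 ± 0.377 (SD, 3 libraries). Of 5 ratios computed between kinases of the pathway, chosen with the values known, it was the only one without overlap. When each of 4642 genes was divided by the same 2 MEK genes, 8.75% were higher in every phthalate oocyte than in every water oocyte, Mos among them.

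The ratio of Mos to Mapk3 was 7.0, 7.31 and 7.21 with water and 14.0, 6.30 and 6.37 with phthalate. Phthalate oocyte 1, in which Mapk3 was lowest, stood apart from the other 5.

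By the smallest root-mean-square difference of centred log2 CPM over the 6 libraries, the 3 genes most like Mos among 2783 were Rpl28 (0.0487), Rpl39 (0.0627) and Mrpl48 (0.0713). Rpl28 and Rpl39 encode proteins of the cytosolic ribosome and Mrpl48 one of the mitochondrial ribosome. Rpl28 had 193, 183 and 169 CPM with water and 222, 156 and 207 with phthalate. As with Mos, phthalate oocyte 1 was highest, while the lowest was phthalate oocyte 2.

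The wider pathway was followed in 8 lists of 111 genes, of which 94 had a count and 45 passed the filter. In the sums, 4 of the 45 were at least 1.5-fold higher in phthalate oocytes and 3 at least 1.5-fold lower, shares close to those over all genes. The median log2 ratio was -0.01. Groups did not overlap for 2 genes, both lower, Elk4 and Dusp12.

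Among inputs through RAS, 1 of 8 genes that passed was past 1.5-fold. Rasa1, which encodes a GTPase-activating protein that turns RAS off, had a log2 ratio of -0.64 (-1.72 to 0.38) from 46 and 28 counts. It was under 1.5-fold when water oocyte 2 (-0.32), phthalate oocyte 2 (-0.33) or phthalate oocyte 3 (-0.33) was left out, and -1.58 when phthalate oocyte 1 was.

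Among scaffolds and binding proteins, 1 of 9 was past it. Pebp1, which encodes an inhibitor of the pathway, had a log2 ratio of 0.61 (-0.26 to 1.51) from 40 and 58 counts. The ratio was 0.56 when water oocyte 1 was left out, 0.41 when phthalate oocyte 2 was and 0.54 when phthalate oocyte 3 was.

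Of 6 phosphatase genes, 1 was past 1.5-fold. Dusp1, which encodes a phosphatase of MAP kinases, had 16, 15 and 6 counts with water and 28, 16 and 16 with phthalate, for a log2 ratio of 0.77 (-0.11 to 1.69). It was under 1.5-fold without water oocyte 3 (0.45) or phthalate oocyte 1 (0.41). Dusp12, a member of the same broad phosphatase family, had 353, 349 and 349 CPM against 277, 298 and 316, with a log2 ratio of -0.22 (-0.57 to 0.14).

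Among 12 partners and targets of MOS, ERK and RSK in oocytes, 1 was past it. Pkmyt1, which encodes a kinase that inhibits CDK1 and a known RSK target, had 11, 14 and 7 counts against 10, 28 and 11, for a log2 ratio of 0.69 (-0.28 to 1.69). The ratio came mostly from phthalate oocyte 2, without which it was 0.13, and it was 0.47 without water oocyte 3.

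Of 8 genes listed as further kinases activated by ERK, some of them also targets of p38, only Mknk1 passed the filter, with a log2 ratio of -0.13. Likewise 1 of 15 nuclear targets of ERK passed the filter. Elk4, which encodes a transcription factor phosphorylated by ERK, had 51.9, 56.5 and 70.5 CPM with water and 39.6, 44.1 and 25.5 with phthalate. All 3 phthalate values were lower, at a log2 ratio of -0.69 (-1.72 to 0.28). The ratio was -0.55 without water oocyte 3 and -0.54 without phthalate oocyte 3.

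In the list for the JNK and p38 branches, which answer to stress, 7 of 24 genes passed and 2 were past 1.5-fold. The list also holds Mapk6, which passed, and Mapk7 and Map2k5, genes of neither branch. Mapk9 (JNK2) had 77.9, 79.8 and 42.3 CPM with water and 47.6, 40.7 and 29.1 with phthalate, with a log2 ratio of -0.76 (-1.74 to 0.17). It stayed past 1.5-fold with each oocyte left out, between -0.998 and -0.59, but the groups overlapped through water oocyte 3. Map3k5, which encodes the stress kinase ASK1, had a ratio of 0.61 (-0.29 to 1.53). Leaving out water oocyte 1 or 2 gave 0.53 or 0.54, and leaving out phthalate oocyte 1 or 2 gave 0.58 or 0.24. The counting interval of each of these 7 genes spanned 0.

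**Figure D4:**
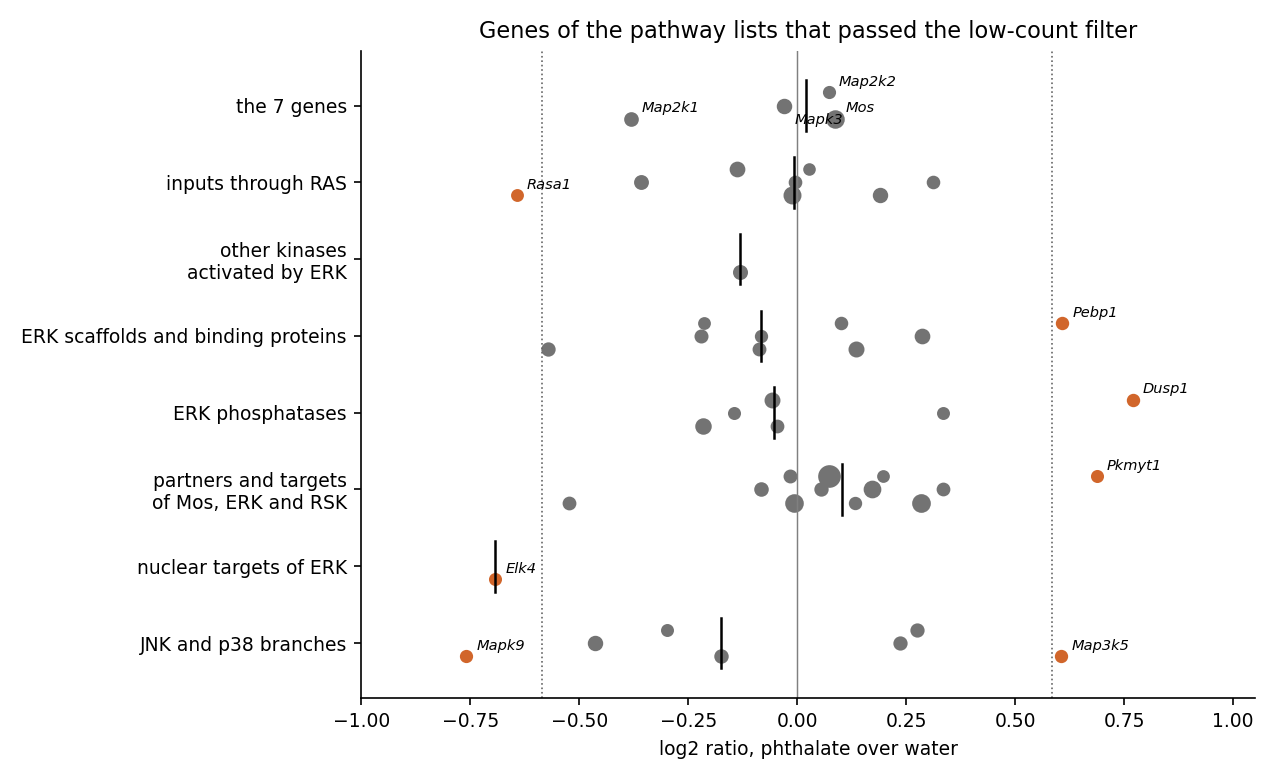
Log2 ratio of phthalate over water sums (horizontal axis) of the 4 genes of the cascade that passed the low-count filter and of the genes of 7 pathway lists that did. Each point is a gene, larger with its mean count, black bars are list medians, dotted lines mark 1.5-fold, and genes past it are orange. The 7 orange points fall on both sides, 4 to the right and 3 to the left.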

How the data were processed

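The authors deposited raw whole-number counts per gene symbol for 6 libraries, with 92 ERCC spike-ins kept out of totals here. The submitters' processing notes name the build mm10 and the tools cutadapt, Trimmomatic, HISAT2 and DESeq2, without roles; the counter, annotation, use of strand and handling of molecular identifiers are not given in the sources used here. Positions and lengths are from GENCODE M21, overlaps from RefSeq GRCm38.p6. CPM used library totals of 252267 to 300917. Ratios used summed counts over TMM-scaled totals (edgeR 4.0.16, R 4.3.3), for genes passing filterByExpr (minimum count 10, minimum total 15). Intervals are 95% exact (Clopper-Pearson) on counts divided by 2. The script was tested on simulated data.

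The 7 genes and the lists were chosen with earlier results of these data known. Named genes are the 7, 1 further gene that is not reported here, list genes past 1.5-fold and the 3 most like Mos among genes averaging 20 counts or more (log2 CPM, prior count 2); any others were chosen after their values were seen. Alternatives were other scalings, no filter and each library left out.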

Additional observations from a re-analysis of the deposited data

How the results depend on the processing

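No paired analysis was possible because the labels tie no replicate number to a shared animal, culture or batch, and no result comes from a test. For Mos, Map2k1, Map2k2, Mapk3, Rps6ka1 and Rps6ka3, each of 12 alternatives stayed within the counting interval. Scaling to ERCC counts moved the median of all genes to 0.12, and Mos to 0.20, Map2k1 to -0.27, Map2k2 to 0.19 and Mapk3 to 0.08, so the sign of Mapk3 depended on it. The sign also changed without 1 oocyte for Mos (1 of 6), Map2k2 (3 of 6) and Mapk3 (2 of 6).

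Without a filter on low counts, 2 genes of the cascade were past 1.5-fold in place of 0 (Rps6ka1 and Rps6ka3), and 32 genes of the pathway lists in place of 7, since genes with few counts then enter. The share of all genes past 1.5-fold without the filter is not given here. Such ratios are common at low counts. Among genes that passed with a mean count below 20, 11.3% were at least 1.5-fold higher and 14.2% at least 1.5-fold lower. Leaving out 1 oocyte gave 5 to 8 pathway genes, and ERCC scaling 5. Of the 4 cascade genes that passed the filter, the number without overlap was 0, and from 0 to 1 with an oocyte left out: Map2k2 without water oocyte 1 and Mos without phthalate oocyte 2, both higher. Among the RSK genes, below the filter, Rps6ka3 was lower without overlap when water oocyte 1 or phthalate oocyte 1 was left out, and Rps6ka1 higher without phthalate oocyte 3. With an oocyte left out fewer libraries have to separate, so a lack of overlap is easier to reach. The share over all genes is not given for these settings, so these cases do not set the genes apart. The median log2 ratio of the 4 genes ranged from -0.16 to 0.11 with an oocyte left out. The TMM-scaled overlap and the alternatives of the pathway count, other than the missing filter, were chosen after seeing the data. Depth limits the RSK genes most.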

Other observations

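Among 15 genes for nuclear targets of ERK, 11 had a count and Elk4 alone passed the filter on low counts. Fosl1, Jun, Ier2 and Myc, the other 4, had 0 counts in all 6 libraries, a share of 26.7% against 49.3% of all 25239 genes. Fos had 4 counts, all in water oocyte 3, while Srf summed to 24 counts with water and 25 with phthalate and Egr1 to 20 and 9.

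Of the pathway genes with a count that did not pass the filter, 49 in number, 5 had every phthalate oocyte below every water oocyte (10.2%) and 0 had every one above. Over all 8160 genes of that kind the shares were 3.16% and 3.08%. The 49 and the 8160 genes were not matched for counts, and a gene with too few counts cannot separate in either direction. The 5 were Etv1, Shc1, Spred2, Map3k11 and Map2k5, named because of their values. Etv1, which encodes an ETS transcription factor, had 9, 13 and 13 counts with water and 2, 4 and 2 with phthalate. Map3k11 summed to 37 and 10 counts, Shc1 to 20 and 4, Spred2 to 12 and 0 and Map2k5 to 7 and 0. None of these differences was tested.

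Genes for the chaperone system that MOS relies on had ratios on both sides of 0. Hsp90ab1 had 976, 1180 and 853 CPM with water and 1308, 1271 and 1059 with phthalate, and the groups overlapped. Its log2 ratio of 0.28 (0.09 to 0.47) lay inside the -0.29 to 0.38 that held 90% of genes averaging 100 counts or more. Hsp90aa1, the more abundant gene of the same chaperone, had 8238, 10854 and 9980 CPM against 10628, 9361 and 10454, also with overlap, for a log2 ratio of 0.07 (0.01 to 0.13). That interval covers counting error only, and the libraries of Hsp90aa1 spread far beyond it, with a chi-square per degree of freedom of 25.6 for water and 6.56 for phthalate (3.97 and 2.03 for Hsp90ab1). Cdc37, which encodes its cochaperone for kinases, had a log2 ratio of -0.52 (-1.32 to 0.25), and its groups overlapped as well. These genes too were chosen after their values were seen.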
